A study of Mus musculus with 24 samples.

Results

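Of the 19505 genes that the platform annotation names on the arrays, 9 mark the lymphocytes of the lung: the T cell genes Cd3e, Cd3g, Cd4 and Cd8a, the natural killer (NK) and cytotoxic cell genes Nkg7 and Gzma, and the B cell genes Ms4a1, Cd79a and Cd79b. They were chosen by gene symbol, and each was represented by a single probe set. They were followed in RNA of whole mouse lung at 6 months of age in 4 groups: Marfan mice given sildenafil (5 arrays), Marfan mice given vehicle (5 arrays), wild-type mice given sildenafil (4 arrays) and wild-type mice given vehicle (6 arrays). Mutations in the gene of fibrillin-1, a protein of elastic microfibrils, cause Marfan syndrome, and sildenafil, an inhibitor of phosphodiesterase 5, was dissolved in the water the mice drank from an age of 6 weeks. The labels give neither the Marfan allele nor sex, litter or a batch, and no more than the planned 6 per group says that each array is a separate mouse, so the p-values rest on the spread among arrays, which may in part be technical. In whole tissue, fewer cells of a type and less RNA per cell cannot be told apart.

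T cells recognise antigen through the T cell receptor, whose signal is carried into the cell by the CD3 chains. CD3 epsilon (Cd3e) and CD3 gamma (Cd3g) form one of its dimers, while CD4 and CD8 alpha (Cd8a) are the co-receptors that bind MHC class II and class I molecules and divide T cells into helper and cytotoxic lines. NK cells and cytotoxic T cells kill target cells with granules that hold granzyme A (Gzma), and Nkg7 is a membrane protein of such granules. B cells carry CD20 (Ms4a1) on their surface and signal through CD79a and CD79b, the paired chains that accompany membrane immunoglobulin. The lung holds all 3 lineages, in the blood of its capillaries and resident in its tissue.

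The array values are log2 intensities, quantile-normalized over the 20 arrays. Of the 9 genes, 7 lay above the brightest of 23 background probe sets on 20 of 20 arrays, Ms4a1 on 19 and Cd8a on 16. Further genes of the lineages were present as well, since 21 of 21 measured genes of a B cell list, 15 of 18 of a T cell receptor list and 11 of 20 of an NK and cytotoxic list lay above that background on at least 10 arrays. Of a thymocyte list 3 of 7 measured genes did so, with Mns1 and Aqp11 above that background on 20 arrays. Dntt, which defines immature thymocytes, was above it on 0 arrays. The medians of the arrays before normalization ran from 5.32 to 6.45 log2 units. Marfan sildenafil array 9 stood apart from the others: 12.4% of all genes were higher there than on any other array and 13.8% were lower. Sex is not in the labels, and the mean of 3 Y-linked genes was 2.62 to 3.15 on arrays 8, 20, 21, 5, 13 and 14 and 7.31 to 7.85 on the other 14, so that each group held arrays of both kinds.

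Promoter sequences from RefSeq (mouse build GRCm38.p6, 250 bases before to 50 after the start of the gene) were found for 6 of the 9 genes, and 4 are shown. Cd3e and Cd3g are shown as chains of a single complex whose differences under sildenafil had opposite signs, both being transcribed from the minus strand of chromosome 9 with Cd3d between them. Gzma is shown as the member with the widest range over the arrays, and Cd79a as a B cell gene that varied closely with its partner Cd79b. Capitals mark a match to the motif CAGGAAGT of ETS family factors in Cd3e and Cd79a, and to the motif TGTGGTTT of RUNX factors in Gzma, searched on both strands. The regions, in the order of the lines, are chr9:45009562-45009861 (minus strand), chr9:44980382-44980681 (minus strand), chr13:113100932-113101231 (minus strand) and chr7:24897247-24897546 (plus strand).
Cd3e promoter: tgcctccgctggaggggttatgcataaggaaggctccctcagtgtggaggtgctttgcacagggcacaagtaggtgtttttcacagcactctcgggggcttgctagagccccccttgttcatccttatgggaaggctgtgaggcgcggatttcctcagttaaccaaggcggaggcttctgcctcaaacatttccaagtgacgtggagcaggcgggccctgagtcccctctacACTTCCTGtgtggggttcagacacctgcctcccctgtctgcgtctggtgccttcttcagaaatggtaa
Cd3g promoter: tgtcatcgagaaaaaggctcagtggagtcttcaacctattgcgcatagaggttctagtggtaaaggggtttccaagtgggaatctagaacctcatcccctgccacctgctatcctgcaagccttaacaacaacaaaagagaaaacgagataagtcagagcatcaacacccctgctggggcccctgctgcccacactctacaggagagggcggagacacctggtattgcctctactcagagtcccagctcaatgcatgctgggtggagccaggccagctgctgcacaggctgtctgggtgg
Gzma promoter: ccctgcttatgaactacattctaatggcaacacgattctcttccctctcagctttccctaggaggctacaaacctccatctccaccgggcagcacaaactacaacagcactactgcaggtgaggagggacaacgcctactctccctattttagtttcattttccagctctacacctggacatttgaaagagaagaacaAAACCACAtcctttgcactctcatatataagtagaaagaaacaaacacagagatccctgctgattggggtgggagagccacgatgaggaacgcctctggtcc
Cd79a promoter: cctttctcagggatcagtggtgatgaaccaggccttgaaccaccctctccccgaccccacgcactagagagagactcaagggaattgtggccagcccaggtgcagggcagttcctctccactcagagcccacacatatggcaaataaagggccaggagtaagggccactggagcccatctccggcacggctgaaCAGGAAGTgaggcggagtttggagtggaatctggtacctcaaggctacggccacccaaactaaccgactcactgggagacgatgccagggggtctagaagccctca
In Cd3e the match reads ACTTCCTG, on the strand opposite to the gene, 18 bases before the start, and in Cd79a it begins 56 bases before the start. Of 32851 promoters of this length, 3.33% hold CAGGAAGT. The RUNX match of Gzma reads AAACCACA, again on the opposite strand and 52 bases before the start, and 1.78% of all promoters hold this motif. Cd3g, Cd8a and Nkg7 held none of the 5 motifs searched, which also included the octamer ATGCAAAT (1.74% of promoters), a palindromic motif of EBF factors (0.904%) and the ETS motif ACCGGAAGT (1.1%). Such a match is a run of letters and says nothing of binding in these lungs.

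The level of each gene is given by array, in the order of arrays 8, 9, 10, 11 and 12 for Marfan sildenafil, 20, 21, 22, 23 and 24 for Marfan vehicle, and 1, 4, 5 and 6 for wild-type sildenafil. Cd3e stood at 8.37, 8.57, 8.43, 8.50 and 8.43 log2 units on the Marfan sildenafil arrays and at 7.86, 8.92, 8.36, 8.07 and 8.54 on the Marfan vehicle arrays. It was 8.79, 8.70, 8.34 and 8.67 on the wild-type sildenafil arrays and ran from 7.36 to 8.43 with a median of 8.24 on the 6 wild-type vehicle arrays. The groups overlapped, with Marfan vehicle array 21 highest and wild-type vehicle array 17 lowest of the 20. The Marfan sildenafil arrays lay closest together, with a mean and SD of 8.46 ± 0.08 (n = 5), against 8.35 ± 0.41 (n = 5) under vehicle.

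Cd3g, the partner chain, stood at 6.54, 7.13, 7.22, 7.05 and 7.09 log2 units on the Marfan sildenafil arrays and at 7.31, 7.94, 7.01, 7.09 and 7.16 on the Marfan vehicle arrays. Its wild-type sildenafil values were 7.16, 7.74, 7.00 and 7.12, and the wild-type vehicle values ran from 6.93 to 7.82 with a median of 7.39. Array 8 of the Marfan sildenafil group was the lowest for Cd3g, while for Cd3e it lay near the middle of the 20. Array 17, lowest for Cd3e, was the next lowest for Cd3g, and array 21 was highest for both chains.

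The helper cell co-receptor gene Cd4 stood at 7.05, 7.49, 6.87, 6.95 and 7.08 log2 units on the Marfan sildenafil arrays and at 6.39, 7.63, 6.82, 6.69 and 6.79 on the Marfan vehicle arrays. Wild-type sildenafil arrays had 6.73, 7.36, 7.00 and 7.20, and wild-type vehicle arrays 6.54 to 6.91 with a median of 6.74. Arrays 21 and 9 were the highest, in different groups, and 4 of 5 Marfan sildenafil arrays lay above the highest wild-type vehicle array. Cd8a, the cytotoxic co-receptor gene, had 5.34, 5.41, 6.60, 6.33 and 6.70 log2 units on the Marfan sildenafil arrays and 6.72, 6.65, 5.89, 6.30 and 6.59 on the Marfan vehicle arrays. On wild-type sildenafil arrays it had 6.06, 6.46, 6.33 and 6.28, and on wild-type vehicle arrays 5.98 to 6.87 with a median of 6.61. Marfan sildenafil arrays 8 and 9 stood at the bottom, below all 18 others, and the other 3 arrays of that group lay within the range of the wild-type vehicle arrays. Before quantile normalization Cd8a on array 9 (5.20) lay below the brightest background probe set (5.41), and on array 8 (5.58) above it (5.29). Cd8b1, the gene of the CD8 beta chain, was also lowest on these arrays, at 6.36 on array 8 and 6.27 on array 9, where the next array had 6.68. This gene was singled out after its values were seen.

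Of the cytotoxic genes, Nkg7 stood at 7.63, 6.95, 7.90, 7.51 and 7.88 log2 units on the Marfan sildenafil arrays and at 7.45, 8.36, 7.45, 7.27 and 7.80 on the Marfan vehicle arrays. Its values were 8.10, 7.88, 7.77 and 7.65 on wild-type sildenafil arrays and 7.61 to 8.20 with a median of 8.05 on wild-type vehicle arrays. In the Marfan vehicle group, 3 of 5 arrays (20, 22 and 23) lay below every wild-type array, and array 21 lay above all 19 others. Gzma had 9.23, 8.10, 9.00, 9.10 and 9.25 log2 units on the Marfan sildenafil arrays and 8.74, 10.09, 8.61, 8.74 and 8.85 on the Marfan vehicle arrays. It had 9.15, 9.12, 9.44 and 9.04 on wild-type sildenafil arrays and 8.70 to 9.55 with a median of 9.43 on wild-type vehicle arrays. Gzma had the widest range of the 9 genes, 1.99 log2 units or 3.98-fold over the 20 arrays, and Marfan arrays formed both ends, array 9 the lowest and array 21 the highest. Granzyme A and Nkg7 therefore shared their highest and their lowest array.

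Among the B cell genes, Ms4a1 stood at 7.25, 6.69, 7.51, 7.19 and 7.34 log2 units on the Marfan sildenafil arrays and at 6.95, 7.16, 6.48, 7.23 and 7.36 on the Marfan vehicle arrays. It was 7.29, 7.29, 7.12 and 7.10 on wild-type sildenafil arrays and 6.72 to 7.86 with a median of 7.40 on wild-type vehicle arrays. Its lowest array was Marfan vehicle array 22, with array 9 next, and its highest was wild-type vehicle array 15. Before quantile normalization Ms4a1 on array 22 (6.67) lay below the brightest background probe set (6.85). Cd79a had 9.83, 9.55, 10.36, 10.22 and 10.44 log2 units on the Marfan sildenafil arrays and 9.67, 10.41, 10.20, 10.08 and 10.59 on the Marfan vehicle arrays. It had 10.41, 10.40, 10.19 and 10.36 on wild-type sildenafil arrays and 9.73 to 10.58 with a median of 10.20 on wild-type vehicle arrays. Cd79a had the narrowest range of the 9 genes, 1.04 log2 units, and array 9 was its lowest. Cd79b had 8.85, 8.61, 9.54, 9.15 and 9.39 log2 units on the Marfan sildenafil arrays, 8.87, 9.61, 9.00, 9.23 and 9.37 on the Marfan vehicle arrays, 9.48, 9.61, 9.29 and 9.16 on wild-type sildenafil arrays and 8.83 to 9.96 with a median of 9.48 on wild-type vehicle arrays. Array 9 was again the lowest and wild-type vehicle array 18 the highest, and the 4 groups overlapped for each of the 3 genes.

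**Figure D1:**
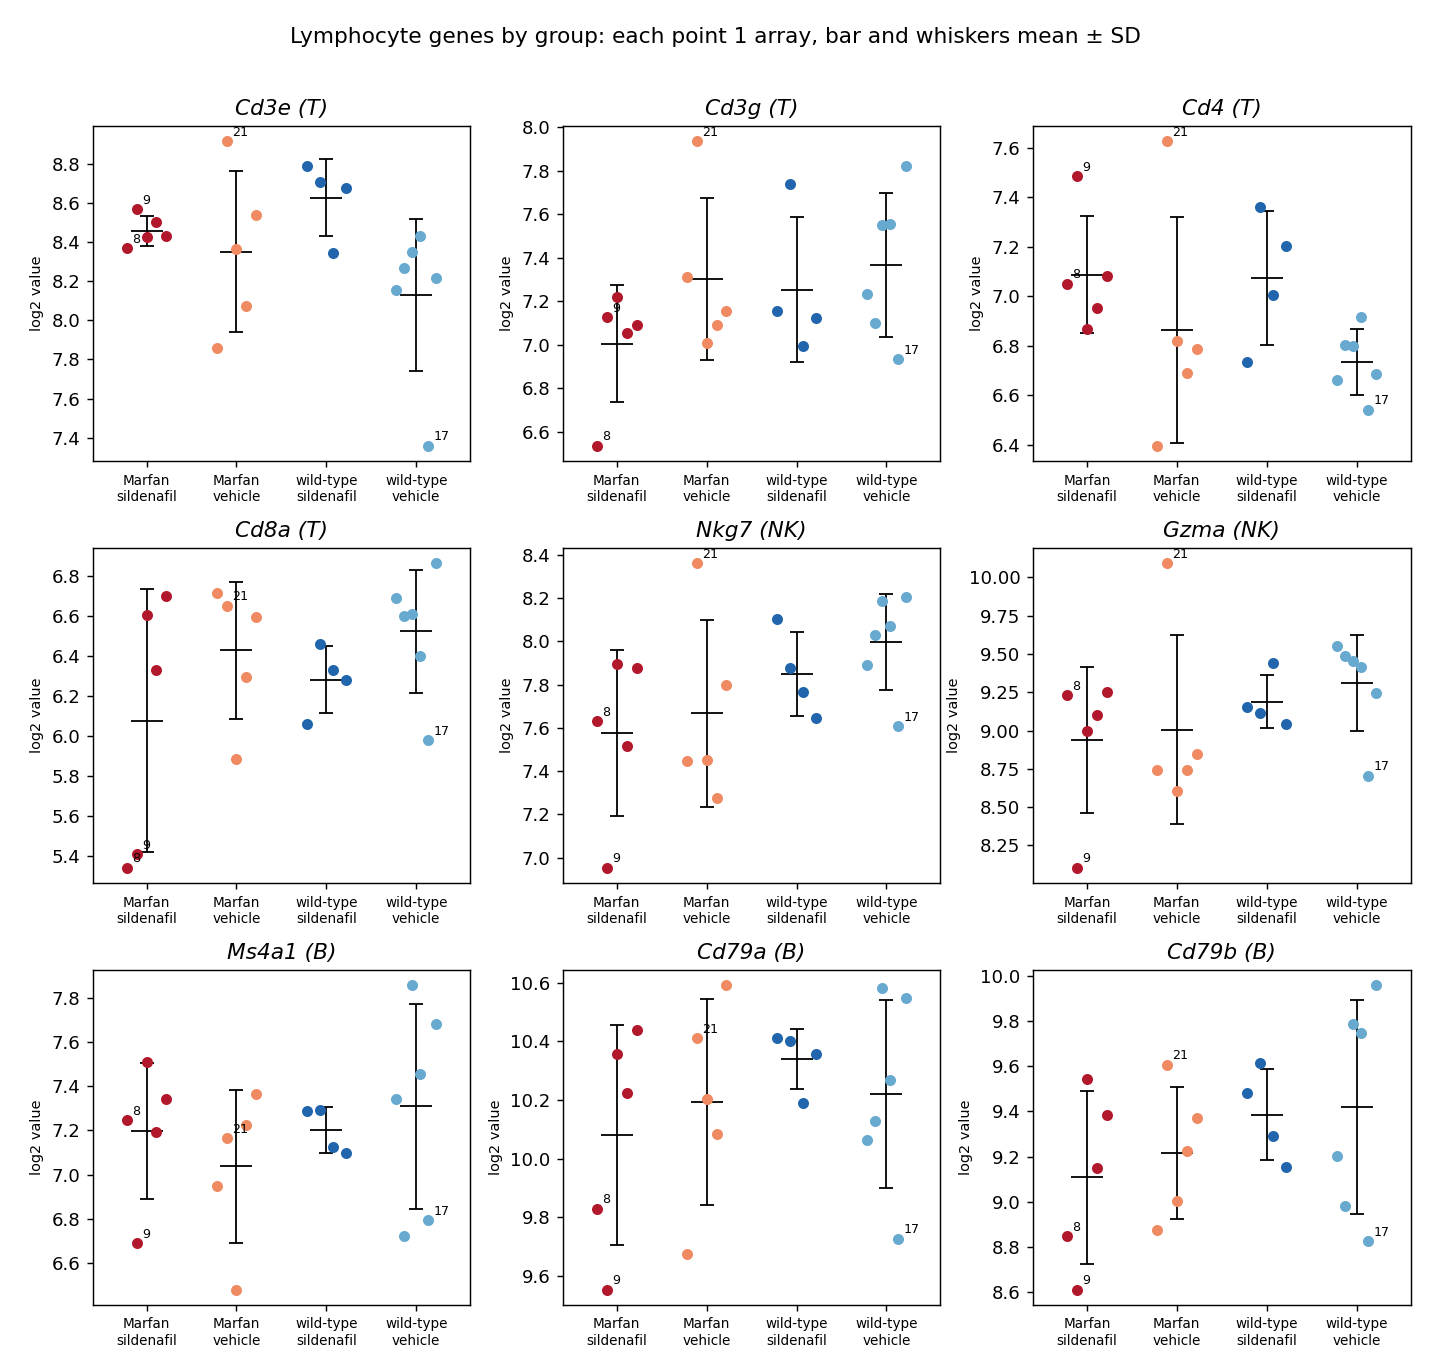
Log2 level (quantile-normalized, vertical axis) of the 9 lymphocyte genes in the 4 groups, with 1 point per array, the group mean as a bar and the SD as whiskers, and arrays 8, 9, 17 and 21 numbered. The groups overlap for every gene, Cd8a is split by arrays 8 and 9 of the Marfan sildenafil group, and array 21 is the highest Marfan vehicle array for Cd3e, Cd3g, Cd4, Nkg7, Gzma and Cd79b.

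The first question was whether lymphocyte genes differ between Marfan and wild-type lungs. Averaged over both treatments, Nkg7 lay -0.30 ± 0.13 (SE) log2 units from wild-type, and Gzma -0.28 ± 0.17, Cd79b -0.24 ± 0.14, Cd3g -0.16 ± 0.13, Cd8a -0.15 ± 0.17, Cd79a -0.14 ± 0.12 and Ms4a1 -0.14 ± 0.14. Cd4 at 0.071 ± 0.12 and Cd3e at 0.026 ± 0.12 were the 2 above 0. Thus 7 of 9 differences were below 0, where 51.8% of all genes were, and their median was -0.15 against -0.0051 over all genes. None passed the test: limma, fitted over 19505 genes with Benjamini-Hochberg adjustment, called 0 members and 0% of all genes at an adjusted p under 0.05. At an unadjusted p under 0.05 limma called 1 member, Nkg7, against 5.35% of all genes (unadjusted p = 0.0287, adjusted p = 0.918, 95% interval -0.57 to -0.034). That unadjusted call was lost on leaving out 5 of 20 single arrays (9, 20, 22, 23 or 1), Nkg7 standing at -0.23 (adjusted p = 0.916) without array 9. Without that array Cd79a stood at -0.077, Ms4a1 at -0.075 and Cd8a at -0.066. The averaged Gzma value was -0.17 without array 9 and -0.43 once the brightness of each array entered the fit. In the deposited values, not normalized further, the median of all genes itself lay at 0.125, 2 of 9 members lay above that median, and Cd3g, Cd8a and Ms4a1 stood slightly above 0.

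Under vehicle alone, Nkg7 averaged 7.67 ± 0.43 in Marfan lungs and 8.00 ± 0.22 in wild-type lungs (SD, n = 5 and 6), a limma difference of -0.33 ± 0.17 (adjusted p = 0.794). Gzma averaged 9.01 ± 0.61 in Marfan vehicle and 9.31 ± 0.31 in wild-type vehicle lungs, a difference of -0.30 ± 0.22 with an interval of -0.76 to 0.15. Array 21, the highest of all, belongs to the Marfan vehicle group: without it the difference was -0.51 for Nkg7 and -0.57 for Gzma, with limma adjusted p = 0.612 and 0.583. In the deposited values Gzma stood at -0.039, where the median of all genes lay at 0.247. Array brightness differed in this comparison too, with deposited medians of 5.80 to 6.13 on Marfan vehicle and 5.32 to 5.83 on wild-type vehicle arrays. The largest difference above 0 was that of Cd3e, 0.22 ± 0.17, and 7 of 9 members lay below 0 beside 51.2% of all genes, their median at -0.095 against -0.0048. In this comparison 0 members and 0% of all genes passed, and 0 members against 6.26% of genes had an unadjusted p under 0.05.

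Under sildenafil, 8 of 9 members lay below 0 in Marfan against wild-type lungs, beside 51.2% of all genes, with a median of -0.25 against -0.0049. Cd79b stood at -0.28 ± 0.21, Nkg7 at -0.27 ± 0.19, Cd79a at -0.26 ± 0.18, Gzma at -0.25 ± 0.25 and Cd3g at -0.25 ± 0.20, and Cd4, at 0.013 ± 0.18, was the 1 above 0. Again limma called 0 members and 0% of all genes at the adjusted threshold, and 0 members against 3.89% of genes at an unadjusted p under 0.05. Every interval included 0, that of Cd79b running from -0.71 to 0.16. Without array 9, 8 of 9 members still lay below 0, but their median was -0.12: Cd79b stood at -0.15, Cd79a at -0.13, Nkg7 at -0.12, Gzma at -0.042, Cd8a at -0.038 and Cd4 at -0.087, with Ms4a1 at 0.12. In the same comparison 8 of 8 lung endothelial genes lay below 0 (median -0.37, mean level 8.92, on array 9, to 10.20 on the Marfan sildenafil and 10.18 to 10.28 on the wild-type sildenafil arrays) and 6 of 7 airway epithelial genes above 0 (median 0.37), with 0 of either list passing the adjusted threshold. Their part in the lymphocyte differences was not tested. The Cd8a difference was -0.21 ± 0.25 with all arrays and 0.26 without arrays 8 and 9.

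The second question was whether sildenafil treatment changes these genes. Averaged over genotypes the T cell genes divided: Cd3e stood at 0.30 ± 0.12 (SE) and Cd4 at 0.28 ± 0.12 log2 units above vehicle, while Cd8a stood at -0.30 ± 0.17 and Cd3g at -0.20 ± 0.13. Of all 9, 5 lay below 0, beside 51% of all genes, and the 5 NK and B cell genes lay between -0.12 (Nkg7) and 0.026 (Ms4a1). Neither Cd3e nor Cd4 passed over all genes (limma adjusted p = 0.363 and 0.391), and limma called 0 members and 0% of all genes. At an unadjusted p under 0.05 it called these 2 members, a threshold that 10.9% of all genes met. On leaving out single arrays the unadjusted call was lost for Cd4 in 5 of 20 cases (9, 20, 23, 4 or 6), its value being 0.23 without array 9, and for Cd3e in 1 of 20 (array 20). Without array 9 Nkg7 stood at -0.043 and Gzma at 0.0097. Array brightness moved with treatment in wild-type mice, whose deposited array medians were 5.87 to 6.19 under sildenafil and 5.32 to 5.83 under vehicle. With brightness as a covariate Cd3e stood at 0.21 and Cd4 at 0.29 in the averaged comparison, with adjusted p = 0.725 and 0.608. Without arrays 8 and 9 the averaged Cd8a value was -0.062.

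In wild-type lungs Cd3e averaged 8.63 ± 0.20 under sildenafil and 8.13 ± 0.39 under vehicle (SD, n = 4 and 6). The difference was 0.50 ± 0.18 log2 units or 1.41-fold, with a 95% interval of 0.13 to 0.87. It was the 1 member of 9 with an unadjusted p under 0.05, which 9.1% of all genes had, and did not pass limma's adjustment (adjusted p = 0.43, with 0 members and 0% of all genes passing). Without wild-type vehicle array 17, the lowest array, it was 0.34, and with brightness as a covariate 0.32. In the deposited values it was 0.84, where the median of all genes lay at 0.279. In the same comparison 7 of 8 lung endothelial genes lay above 0 (median 0.25, mean level 10.18 to 10.28 under sildenafil and 9.82 to 10.13 under vehicle) and 6 of 7 airway epithelial genes below 0 (median -0.26, mean level 8.06 to 8.78 under sildenafil and 8.57 to 8.91 under vehicle). Their part in the Cd3e difference was not tested. Below 0 lay 6 of 9 members, beside 50.4% of all genes. Cd4 stood at 0.34 ± 0.18 (adjusted p = 0.571), while Cd8a at -0.24 ± 0.24 and Cd3g at -0.11 ± 0.19 lay on the other side of 0.

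In Marfan lungs, sildenafil against vehicle gave -0.35 ± 0.23 log2 units for Cd8a and -0.30 ± 0.19 for Cd3g, with Cd4 at 0.22 ± 0.17 and Cd3e at 0.11 ± 0.17. Cd8a averaged 6.08 ± 0.66 under sildenafil and 6.43 ± 0.34 under vehicle (SD, n = 5 each), and without arrays 8 and 9, an alternative chosen after the data were seen, the difference turned to 0.12. Nkg7 stood at -0.092 and Gzma at -0.069, and without array 9 they stood at 0.063 and 0.14. The Cd4 difference was 0.42 without Marfan vehicle array 21 and 0.12 without Marfan sildenafil array 9. Of the 9 members 6 lay below 0, beside 51.6% of all genes. Limma called 0 members and 0% of all genes, and 0 members against 6.71% of all genes at an unadjusted p under 0.05. The sildenafil effect in Marfan minus that in wild-type lungs ran over the members from -0.39 ± 0.25 (Cd3e) to 0.26 ± 0.28 (Ms4a1). It was below 0 for 6 of 9 members, beside 50.4% of all genes. No difference between the 2 treatment effects passed (limma called 0 members and 0% of all genes, and 0 members against 4.47% of genes unadjusted). The comparisons with a shared group share its arrays, so their values are not independent of each other. The groups of 0 members failed to overlap, in either direction, in Marfan vehicle against wild-type vehicle (all genes 0.528%), Marfan sildenafil against wild-type sildenafil (1.43%), Marfan sildenafil against Marfan vehicle (0.877%) and wild-type sildenafil against wild-type vehicle (2.72%).

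**Figure D2:**
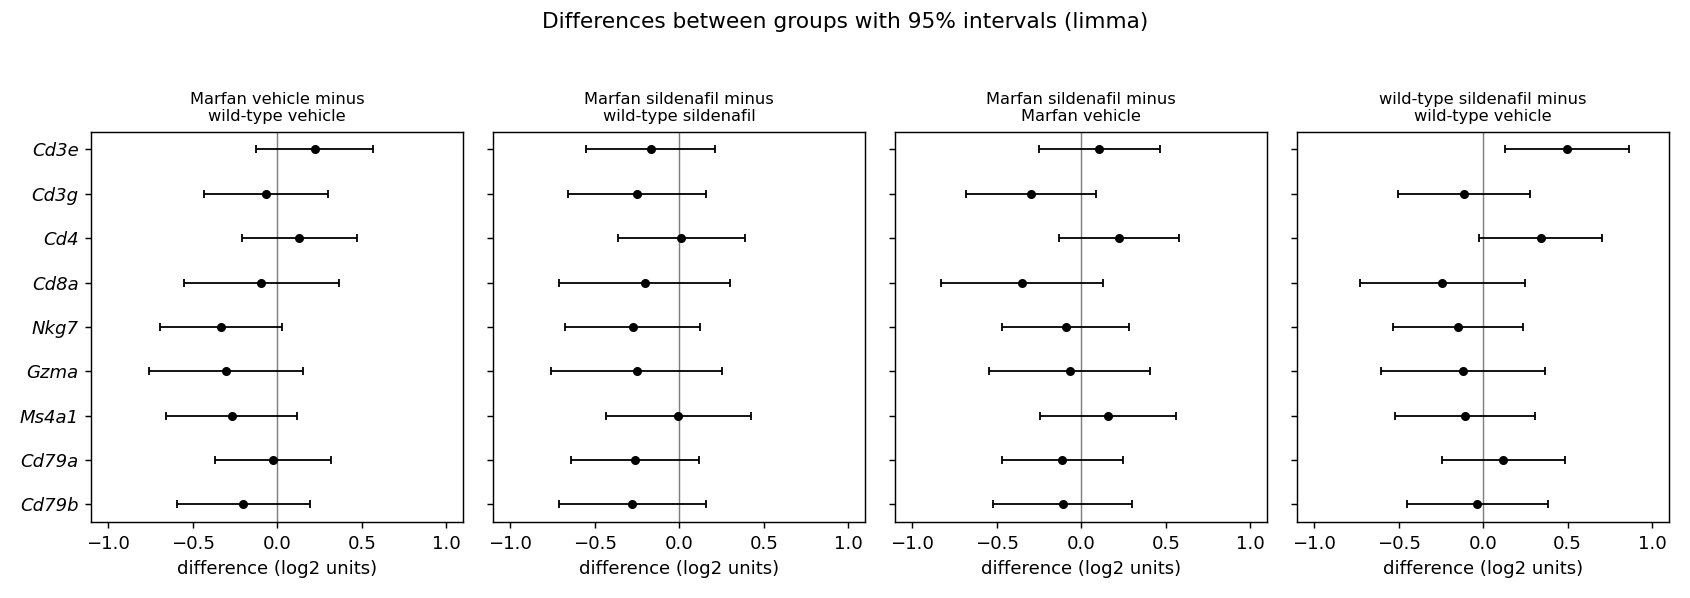
Difference between groups (horizontal axis, log2 units) with its 95% interval from limma for each of the 9 genes in the 4 comparisons of single groups, each panel giving the first-named group minus the second. Only the interval of Cd3e in wild-type sildenafil against wild-type vehicle lungs, 0.13 to 0.87, leaves out 0, and its adjusted p was 0.43.

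The single arrays differed from each other in which lineage was high or low. On wild-type vehicle array 17 all 9 genes lay below the median of the other arrays, by 0.22 (Cd3g) to 1.07 (Cd3e) log2 units, where 49% of all genes lay below it. The B cell list of 21 further genes was below that median in 21 of 21 genes and the T cell receptor list in 13 of 18. Neutrophil genes went the other way there, 9 of 9 lying above the median and 4 above all other arrays, with S100a8, a calcium-binding protein of neutrophils, at 10.19. Lists and genes named for single arrays were chosen after their values were seen.

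Marfan vehicle array 21 was the highest of the 20 for Cd3e, Cd3g, Cd4, Nkg7 and Gzma, 5 of 9 genes where 4.63% of all genes were highest there. Of the further NK and cytotoxic genes 9 of 20 were highest on it, among them Gzmb (granzyme B) at 7.00, against at most 6.29 elsewhere, and Ccl5, a chemokine of cytotoxic cells, at 9.20. T cell receptor genes were highest there in 5 of 18 cases. Of 21 further B cell genes 1 was highest there and 4 lay below the median of the other arrays (median deviation 0.23). Cd79b stood at 0.38 and Cd79a at 0.19 from that median, and Ms4a1 at -0.081. Marfan vehicle arrays 22 and 23, in the same group, had all 9 genes below the median of the 20.

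Marfan sildenafil array 9 had the lowest value of Nkg7, Gzma, Cd79a and Cd79b, 4 of 9 genes where 13.8% of all genes were lowest there. Its lineages did not go together. Relative to the median of the other 19 arrays Gzma lay at -1.05 log2 units, Cd8a at -1.05, Nkg7 at -0.92, Cd79a at -0.71 and Cd79b at -0.68, whereas Cd3g was at -0.028, Cd3e at 0.20 and Cd4 at 0.66. The Cd8a value on array 9 lay below the brightest background probe set. The further NK genes Klrb1c, a receptor of NK cells, at -1.63 and Gzmb at -1.21 were lowest there as well.

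Single T and B cell genes lay at both ends on array 9, where 12.4% of all genes were highest and 13.8% lowest. Of the T cell receptor list 2 of 18 genes were highest and 7 lowest there. Of a list of T cell subset genes 2 of 14 were highest and 3 lowest. Among T cell genes Il7r, the interleukin 7 receptor, stood 1.73 and Ctla4, an inhibitory receptor, 1.54 above the median of the other arrays, each highest of the 20. Lef1, a transcription factor of naive T cells, stood at -1.23 and the T cell adaptor gene Themis at -1.13, each lowest. Of the further B cell genes 10 of 21 were lowest on array 9, among them the transcription factor genes Ebf1 (-1.06) and Pax5 (-0.88), the complement receptor gene Cr2 (-1.06) and the chemokine receptor gene Cxcr5 (-1.04). Cd22, Blnk, Btk and Fcer2a, 4 of the 21, were instead highest there. Blnk and Btk, signalling proteins of B cells that myeloid cells use too, stood at 0.88 and 0.45.

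Plasma cells are the antibody-secreting stage of B cells, and their list went opposite to the B cell members on array 9. All 9 measured plasma cell genes exceeded the median of the other arrays, and 6 of 9 were highest there. Jchain, which joins IgA and IgM into polymers, had 11.19 log2 units on array 9, against 5.74 to 10.43 on the others, and Fkbp11, a protein of the secretory pathway, had 7.29 against 5.14 to 6.32. On the same array 7 of 9 alveolar macrophage genes were highest and 8 of 8 lung endothelial genes lowest, and their part in the lymphocyte values was not tested. The next highest array for Jchain was 21.

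**Figure D3:**
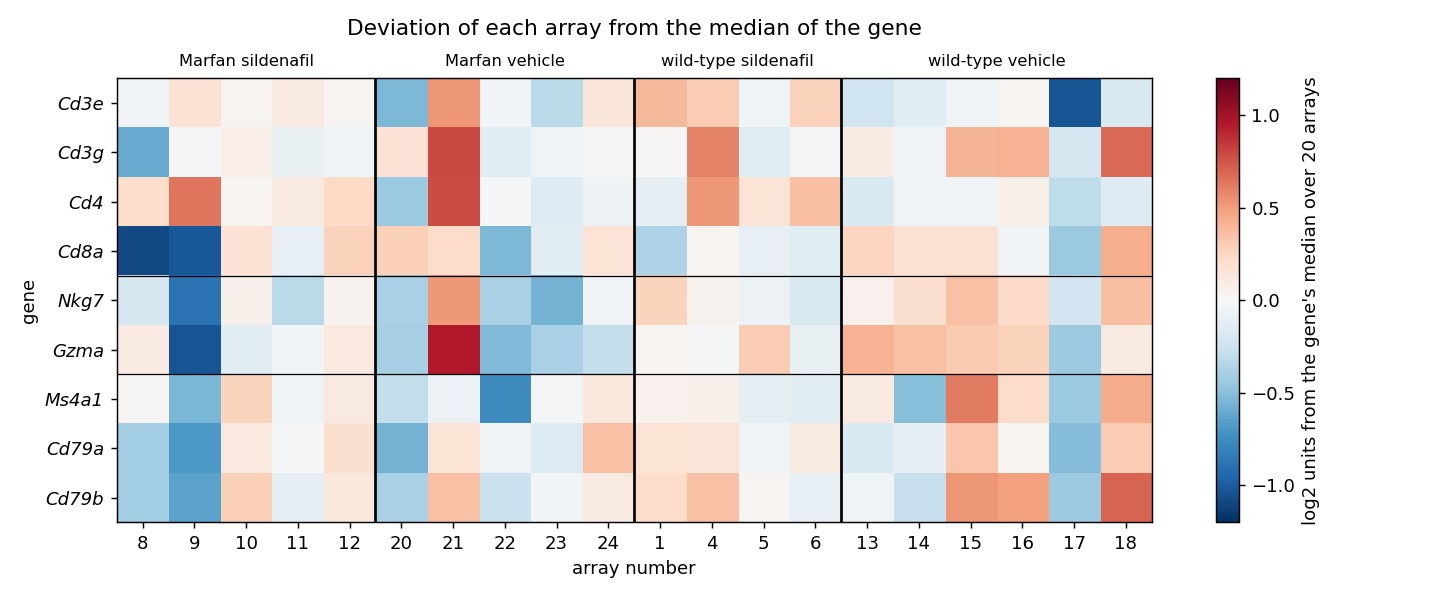
Deviation of each array (columns, by group) from the median of the gene over 20 arrays (colour, log2 units, blue below and red above) for the 9 genes (rows, from T cell to NK and B cell genes). Array 17 is blue throughout, array 21 is red for all T and NK cell genes, array 9 is blue for Cd8a and the NK and B cell genes but red for Cd4, and array 8 is deepest blue for Cd3g and Cd8a and paler blue for Cd79a, Cd79b and Nkg7.

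Within groups the 9 genes varied together to different degrees. Over the 20 arrays, after group means were removed, 34 of 36 pairs of members had a Pearson r above 0, with a median of 0.54. A permutation test of arrays within groups (100000 resamples, two-sided, Benjamini-Hochberg over the 36 pairs) called 17 pairs by r and 10 by Spearman's rho. The 3 B cell genes went together in every pairing. Cd79a and Cd79b, the chains of a single receptor, had r = 0.86 (rho 0.85, permutation adjusted p = 0.00036 and 0.00144), and r = 0.83 without arrays 9 and 20, the 2 farthest from the median of Cd79a. Ms4a1 had r = 0.84 with Cd79b and 0.69 with Cd79a (permutation adjusted p = 0.0012 and 0.0207), and 0.87 and 0.75 without the 2 farthest arrays.

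Nkg7 and Gzma had r = 0.82 (rho 0.63, permutation adjusted p = 0.0203 and 0.0441), and 0.75 without the 2 arrays farthest from the median of Nkg7. Nkg7 also followed the B cell genes, with r = 0.76 for Cd79b (rho 0.79, permutation adjusted p = 0.0009 and 0.00144, 0.78 without the 2 farthest) and 0.75 for Cd79a. Gzma with the B cell genes ran from r = 0.44 to 0.51, and none of these 3 pairs was called. The 5 pairs called whichever single array was left out were Cd3g with Cd79b (r = 0.72), Nkg7 with Cd79a, Nkg7 with Cd79b, Ms4a1 with Cd79b and Cd79a with Cd79b.

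T cell genes were less alike. Cd3e and Cd3g had r = 0.58 (rho 0.51, permutation adjusted p = 0.0428 and 0.0725), a call that held on leaving out 11 of 20 single arrays. Cd3e followed Cd4 with r = 0.65 (rho 0.57, permutation adjusted p = 0.0145 and 0.0441), and without arrays 17 and 20 r was 0.64 (permutation p = 0.0615). Cd3g followed Cd8a with r = 0.54 (rho 0.60, permutation adjusted p = 0.0257 and 0.0212, and 0.52 without the 2 farthest arrays). Cd4 and Cd8a had r = -0.069 (permutation adjusted p = 0.82), and 0.12 without array 9. The number of called pairs was 5 without array 17, 9 without array 21 and 11 without array 9 or array 10.

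**Figure D4:**
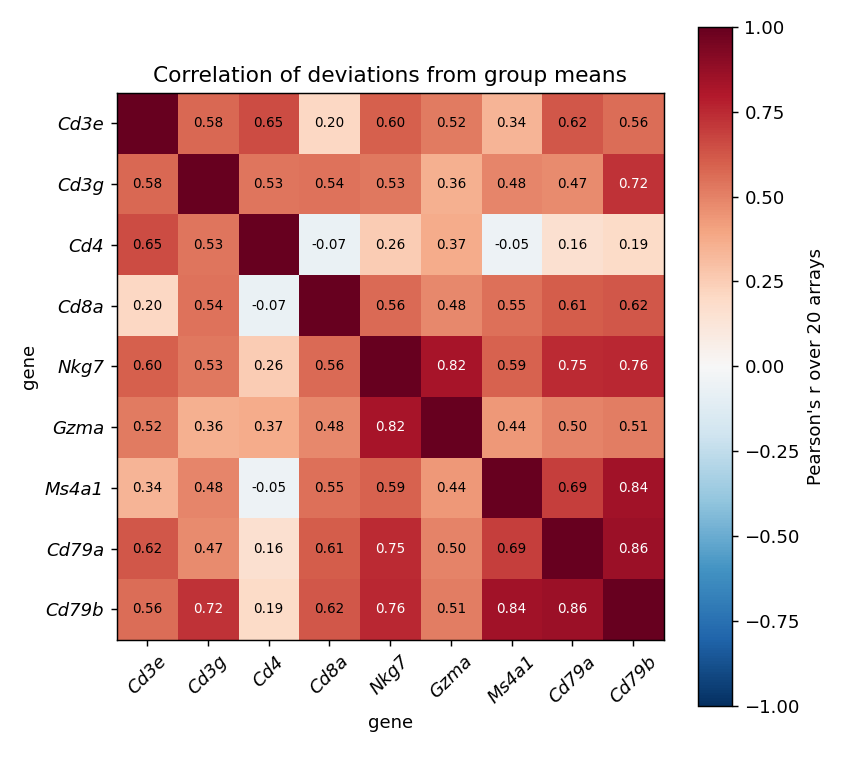
Pearson's r (colour and number) between each pair of the 9 genes over 20 arrays, from deviations from the group means, with both axes running from T cell to NK and B cell genes. The darkest pairs are Cd79a with Cd79b (0.86), Ms4a1 with Cd79b (0.84) and Nkg7 with Gzma (0.82), and Cd4 is near 0 with Cd8a and Ms4a1.

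The 2 CD3 chains moved apart from array to array. The difference of their log2 values, Cd3e minus Cd3g, was 1.83, 1.44, 1.21, 1.45 and 1.34 on the Marfan sildenafil arrays and 0.55, 0.98, 1.35, 0.98 and 1.38 on the Marfan vehicle arrays. It was 1.63, 0.96, 1.35 and 1.55 on the wild-type sildenafil arrays and 0.39 to 1.17 on the 6 wild-type vehicle arrays. Since each probe set has its own brightness, the size of this difference has no meaning by itself, and its change from array to array is what was measured. It was lowest on wild-type vehicle arrays 18 and 17, which had the dimmest deposited medians, 5.32 and 5.55. Within groups it went with the deposited median with r = 0.59 (permutation adjusted p = 0.0649 over 88 relations of members with array measures) and rho = 0.72 (permutation adjusted p = 0.0321), and r was 0.68 without the 2 arrays farthest from the median. With brightness removed within groups r between Cd3e and Cd3g was 0.70, against 0.58 with it.

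Cd3g moved with a list of 8 genes that all leukocytes express (r = 0.82, rho 0.78, permutation adjusted p = 0.0194 and 0.0321, and 0.82 without the 2 farthest arrays). With the median of the background probe sets r was below 0 for all 9 members, at -0.71 for Cd3g (rho -0.70, permutation adjusted p = 0.0558 and 0.0521, and -0.65 without the 2 farthest arrays), -0.64 for Ms4a1 and -0.61 for Cd8a (permutation adjusted p = 0.0666 and 0.0649), the last 2 at -0.40 and -0.41 without the 2 farthest arrays. With the pan-leukocyte list r was above 0 for every member, lowest for Cd8a at 0.26, and was 0.67 for Cd3e (permutation adjusted p = 0.0649). With a list of lymphoid tissue and lymph node stroma genes r was also above 0 for every member. It ran from 0.41 for Cd4 to 0.73 for Cd3e (permutation adjusted p = 0.321 and 0.0649). Of the 10 genes of that list, 4 lay above the brightest background probe set on at least 10 arrays. Cd3e and the 8 lung endothelial genes had r = -0.34 over 20 arrays (rho -0.61, permutation adjusted p = 0.0211 and 0.0521), and -0.73 without array 9, whose endothelial level stood apart. The relation of Cd3g with the pan-leukocyte list, that of Cd3e with the endothelial genes and the rank relation of the CD3 difference with brightness were the calls among the 88 relations.

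**Figure D5:**
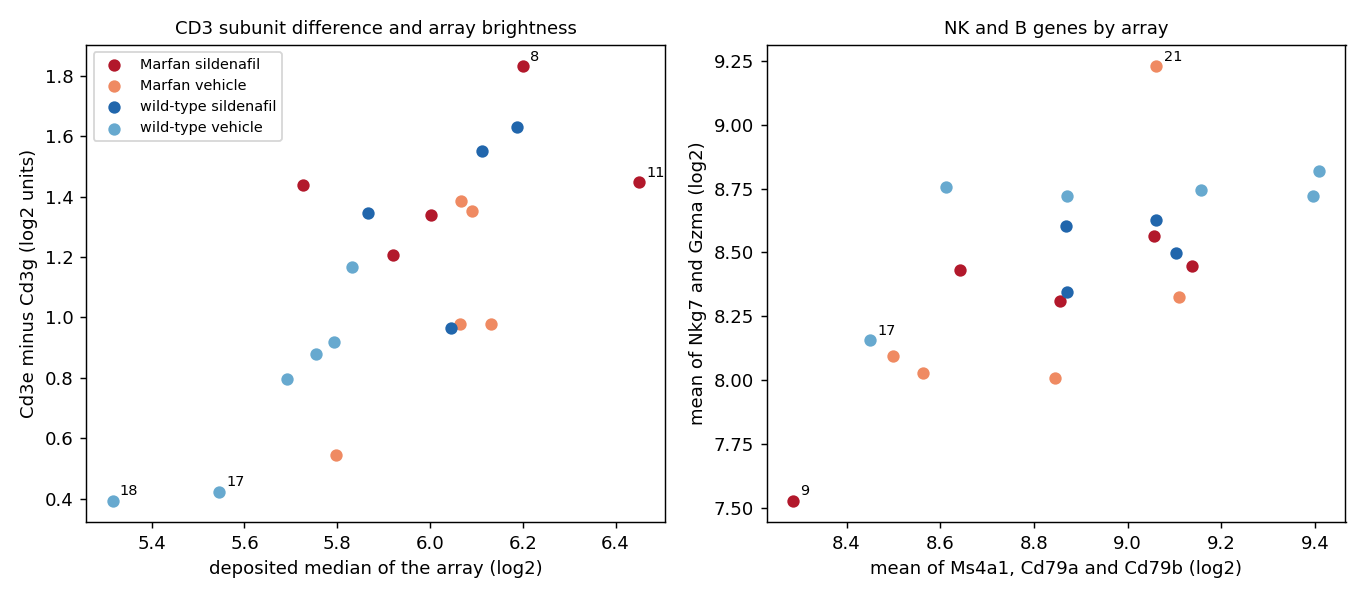
Left, the log2 difference Cd3e minus Cd3g (vertical) against the deposited median of the array (horizontal), and right, the mean of Nkg7 and Gzma (vertical) against the mean of Ms4a1, Cd79a and Cd79b (horizontal), both in log2 units with 1 point per array coloured by group. The CD3 difference is smallest on the dim arrays 17 and 18, and array 9 lies at the low end and array 21 at the high end of the NK mean.

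The genes most alike to each lineage over the 20 arrays were ranked by r with the mean of its members, group means removed, as a description. For the B cell mean the 6 highest were H2-Ob (r = 0.97), a chain of the MHC class II modulator H2-O, Tnfrsf13c (0.90), the receptor for the B cell survival factor BAFF, Gpr18 (0.90), Stap1 (0.87), Ms4a4c (0.86) and Cdk17 (0.84). For the NK mean they were Ccl5 (0.91), Rpp21 (0.90), Gzmb (0.86), Klrb1c (0.85), Pld4 (0.85) and Septin6 (0.83). For the T cell mean they were Ikzf1 (0.87), the lymphoid transcription factor Ikaros, Cd72 (0.86), a B cell surface protein, Wdr73 (0.86), Mrnip (0.86), H2-Aa (0.85), an MHC class II chain, and Cd96 (0.84), a receptor of T and NK cells. Without array 9, 4 of these 6 remained among the top 6 for the T cell mean (Ikzf1, Cd72, Wdr73 and Mrnip), 3 for the B cell mean (H2-Ob, Tnfrsf13c and Gpr18) and 2 for the NK mean (Ccl5 and Rpp21). Values of r over 0.5 with the B cell mean were reached by 15 of 21 further B cell genes, beside 5.55% of all genes. With the T cell mean 10 of 18 T cell receptor genes did so, beside 4.75%, and with the NK mean 9 of 20 NK genes, beside 4.64%. The lists also passed with the means of other lineages: T cell receptor genes passed 0.5 in 10 of 18 cases with the B cell mean and 8 of 18 with the NK mean, and B cell genes in 8 of 21 cases with the T cell mean and 8 of 21 with the NK mean.

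The wider lineage lists were tested in the same fit, and 0 members of any list passed in either averaged comparison. In Marfan against wild-type lungs 14 of 18 T cell receptor genes lay below 0 (median -0.078), with Prkcq, a kinase of T cell signalling, at -0.25 ± 0.11 (SE), Themis at -0.33 ± 0.16 and Cd8b1 at -0.20 ± 0.14. NK and cytotoxic genes lay below 0 in 14 of 20 cases (median -0.12), with Ccl5 at -0.22 ± 0.14 and Klrb1c at -0.29 ± 0.19. B cell genes did so in 17 of 21 cases (median -0.047), with Cr2 at -0.26 ± 0.15 and, above 0, Cd22 at 0.15 ± 0.09. Over all genes 51.8% lay below 0. Under vehicle alone 9 of 18 T cell receptor, 14 of 20 NK and 9 of 21 B cell genes lay below 0. Under sildenafil 14, 15 and 17 did so, beside 51.2% of all genes in each comparison. The medians for T cell receptor genes were -0.0018 and -0.16, and for B cell genes 0.029 and -0.14. Array 9 is in the Marfan sildenafil group, and 7 T cell receptor and 10 B cell genes were lowest there. Plasma cell genes lay above 0 in 6 of 9 cases, with Fkbp11 at 0.30 ± 0.21 and Mzb1 at 0.23 ± 0.18, none with an unadjusted p under 0.05. The mean of their list was 7.71 on array 9 and 6.51 to 6.98 on the other Marfan sildenafil arrays, and Fkbp11 was above background on 11 arrays.

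Under sildenafil against vehicle, averaged over genotypes, 12 of 18 T cell receptor genes lay below 0 (median -0.12, over all genes 51%), with Cd247, the CD3 zeta chain, at -0.27 ± 0.12, Cd8b1 at -0.26 ± 0.14 and Lcp2 at 0.24 ± 0.14. The subset genes Cd40lg, the helper cell ligand of CD40 (-0.37 ± 0.12, above background on 0 arrays), and Il2rb (0.23 ± 0.13) did not pass either. NK and cytotoxic genes lay above 0 in 15 of 20 cases. Cd244a, a receptor of NK and cytotoxic cells, came nearest to the threshold among the NK genes at 0.44 ± 0.09, with 0.40 in Marfan and 0.47 in wild-type lungs (limma adjusted p = 0.0935). On the arrays it had 7.80, 7.72, 7.72, 7.92 and 7.39 log2 units in the Marfan sildenafil group, against 7.16, 7.79, 7.05, 7.45 and 7.07 under vehicle, and 7.79, 7.92, 7.80 and 8.03 in the wild-type sildenafil group, against 7.33 to 7.66 under vehicle. The wild-type groups did not overlap, which held for 2.72% of all genes, and the Marfan groups did, vehicle arrays 21 and 23 lying above sildenafil array 12. Since Cd244a was named for its small unadjusted p, its array values are not a further test. B cell genes lay on both sides, 11 of 21 above 0, and among plasma cell genes Prdm1, the factor that drives plasma cell formation, stood at 0.37 ± 0.13 (adjusted p = 0.269) and Jchain at 0.71 ± 0.53. The Jchain value includes Marfan sildenafil array 9, the highest array for this gene.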

How the data were processed

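The series lists 24 samples of mouse lung RNA for Affymetrix arrays. Of these, 20 had values, and 4 that did not pass quality control, per the labels, held none. The deposited values are log2 intensities per probe set; Affymetrix Expression Console and RMA are named in the submitters' processing notes, with versions, and any further normalization between arrays, not given in the sources used here. Array medians differed, so the 22206 transcript probe sets were quantile-normalized over the 20 arrays after 6923 control rows were left out. The platform annotation gave 1 symbol to 19572 probe sets, none to 2634 and several to 0, and the probe set with the highest mean was kept for each of 19505 genes. The number of arrays limits the precision.

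Limma 3.58.1 (R 4.3.3) was fitted to all genes with 1 mean per group and a variance trend (16 residual degrees of freedom), giving 7 comparisons with two-sided tests and Benjamini-Hochberg adjustment over all genes. The comparison code was tested on simulated data. Correlations used deviations from group means and permutation of arrays within groups (numpy 2.4.6, scipy 1.17.1, Python 3.11.15). The members and lists were chosen with earlier results of these data known. Named beside the members were up to 4 genes of a list with the smallest unadjusted p in an averaged comparison, and the 6 genes most alike to each lineage mean, leaving out predicted genes, antigen receptor segments, olfactory and taste receptors and small RNAs. Alternatives were the deposited values, median centring, the mean of probe sets, leaving out dim genes (25%), no variance trend, array weights, array brightness or Y-linked genes as a covariate, fits of 2 groups only and leaving out each array. Protein sequences were not used here.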

Additional observations from a re-analysis of the deposited data

Results flagged for a closer look

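A sample lay far from the others of its group, by Dixon's test at 95%, in 5 of 36 tests (9 genes in 4 groups), where chance gives about 1 in 20. Gzma accounted for 3 of them: it was 8.10 log2 units on Marfan sildenafil array 9, the low end of its group, 10.1 on Marfan vehicle array 21, the high end of its group, and 8.70 on wild-type vehicle array 17, the low end of its group. Cd3e was 7.36 on wild-type vehicle array 17, and Cd3g was 6.54 on Marfan sildenafil array 8, each the low end of its group. The median of the background probe sets was 3.12 log2 units on array 8 and 3.26 on array 17, and 2.72 on array 9 and 2.69 on array 21, within 2.56 to 3.28 over the 20 arrays. Within groups Cd3g and this median had r = -0.71 (permutation adjusted p = 0.0558), Cd3e -0.30 and Gzma -0.17. With red blood cell genes r over 20 arrays was -0.32 for Gzma, -0.29 for Cd3e and 0.044 for Cd3g (all 3 permutation adjusted p at or above 0.428). Without arrays 9 and 4, the 2 farthest, Gzma had -0.71 with these genes (permutation p = 0.00361, not adjusted). Of the 3 red blood cell genes measured, 2 lay above background on at least 10 arrays. The Y-linked mean was 2.86 on array 8 and 2.82 on array 21, and 7.39 on array 9 and 7.71 on array 17. With that mean r was -0.50 for Gzma (permutation adjusted p = 0.155), 0.032 for Cd3e and 0.18 for Cd3g. With genes of lymphoid tissue and lymph node stroma r was 0.60 for Gzma, 0.73 for Cd3e and 0.58 for Cd3g (permutation adjusted p = 0.076, 0.0649 and 0.1). The part of these measures in the single values, and that of the piece of tissue sampled, was not tested.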

How the results depend on the processing

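Of 1554 single member differences under the alternatives, 1470 kept their sign, 84 changed sign (38 of them other than by leaving out an array), and limma called 0 of them. Not all of them could change sign. Each member has a single probe set, so the mean of probe sets left its values as they were. Leaving out dim genes, no variance trend and fits of 2 groups alter the test but not the difference. Leaving out an array from outside the groups compared also left the difference unchanged. Counted by comparison and setting, 207 in all, members were called in 0 and any gene in 12.

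In the deposited values, whose all-gene medians were shifted as given above, Marfan vehicle against wild-type vehicle turned to 0.27 for Cd3g, 0.26 for Cd8a, 0.058 for Ms4a1, 0.19 for Cd79a and 0.040 for Cd79b, and wild-type sildenafil against wild-type vehicle to 0.26 for Cd3g, 0.16 for Cd8a, 0.20 for Nkg7, 0.19 for Gzma, 0.28 for Ms4a1 and 0.27 for Cd79b. The averaged Marfan difference turned to 0.018 for Cd3g, 0.018 for Cd8a and 0.028 for Ms4a1, and the averaged sildenafil difference to 0.013 for Cd3g, 0.080 for Nkg7, 0.089 for Gzma and 0.12 for Cd79b. Median centring turned Cd79a to -0.026 in the wild-type sildenafil and to -0.053 in the averaged sildenafil comparison, and Cd3e to -0.0035 in the averaged Marfan one. Array weights turned Cd79a to 0.026 in Marfan vehicle against wild-type vehicle, Cd4 to -0.065 and Ms4a1 to 0.076 in Marfan sildenafil against wild-type sildenafil, Nkg7 to 0.0082 and Gzma to 0.10 in Marfan sildenafil against Marfan vehicle, Cd79b to 0.0047 in wild-type sildenafil against vehicle and Cd3e to -0.0028 in the averaged Marfan comparison. Brightness as a covariate turned Cd3g to 0.098 in Marfan vehicle against wild-type vehicle, Cd3g to 0.060 and Cd79a to -0.028 in wild-type sildenafil against vehicle, Cd3e to -0.062 in the averaged Marfan and Cd79a to -0.076 in the averaged sildenafil comparison. The Y-linked covariate turned Gzma to 0.0092 in Marfan sildenafil against Marfan vehicle and Cd79a to -0.022 in the averaged sildenafil comparison. Without arrays 8 and 9, chosen after the data were seen, Cd8a turned to 0.26 in Marfan sildenafil against wild-type sildenafil, 0.12 in Marfan sildenafil against Marfan vehicle and 0.084 in the averaged Marfan comparison. The cause of these changes was not tested.

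Leaving out single arrays, values that changed sign ran as follows. In Marfan vehicle against wild-type vehicle Cd3g ran from -0.22 to 0.026, Cd4 from -0.061 to 0.25, Cd8a from -0.20 to 0.041 and Cd79a from -0.13 to 0.10. In Marfan sildenafil against wild-type sildenafil Cd4 ran from -0.10 to 0.11 and Ms4a1 from -0.084 to 0.12. In Marfan sildenafil against Marfan vehicle Cd3e ran from -0.014 to 0.25, Nkg7 from -0.19 to 0.082, Gzma from -0.17 to 0.20, Cd79a from -0.24 to 0.020 and Cd79b from -0.22 to 0.016. In wild-type sildenafil against vehicle Ms4a1 ran from -0.22 to 0.0039 and Cd79b from -0.15 to 0.075. The averaged Marfan difference ran from -0.051 to 0.087 for Cd3e and from -0.024 to 0.13 for Cd4, and the averaged sildenafil difference from -0.15 to 0.042 for Gzma, from -0.043 to 0.089 for Ms4a1 and from -0.061 to 0.070 for Cd79a.

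The number of all genes called by limma, 0 with the design as reported, was 5 in Marfan vehicle against wild-type vehicle, 2 in the averaged Marfan and 3 in the averaged sildenafil comparison in the deposited values, and 1, 5 and 68 in these comparisons with array weights. Leaving out single arrays it ran from 0 to 2 in Marfan vehicle against wild-type vehicle (2 without array 9, 1 without array 17), from 0 to 2 in the averaged Marfan comparison (2 without array 17) and from 0 to 74 in the averaged sildenafil comparison (74 without array 9, 25 without array 10, 1 without array 24). Of the 36 pairs of members, 26 were called in the deposited values, 7 with median centring and 5 to 20 on leaving out single arrays. No paired analysis was possible because the groups share no replicate numbers.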

Other observations

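On Marfan vehicle array 21, where the T and NK cell genes were high, 7 of 10 dendritic cell genes were the highest of the 20 arrays, against 4.63% of all genes, and 0 of 9 neutrophil genes were. On Marfan sildenafil array 8, where Cd8a and Cd3g were lowest, 16 of 18 T cell receptor genes and 17 of 21 B cell genes lay below the median of the other arrays, beside 49.8% of all genes, and NK genes lay on both sides (10 of 20 below). On wild-type vehicle array 17, 9 of 10 genes of lymphoid tissue and lymph node stroma lay below the median of the other arrays, beside 49% of all genes. Of these 10 genes 4 lay above the brightest background probe set on at least 10 arrays. Among genes of that list Lta, lymphotoxin alpha, stood at 0.30 ± 0.12 (SE) log2 units in Marfan against wild-type lungs averaged over treatments, with adjusted p = 0.918 in limma. Lta was above background on 11 of 20 arrays.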
